A study of Mus musculus with 8 samples.

Results

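The core circadian clock genes were 10 genes chosen by name: the activators Arntl (also called Bmal1), Clock and Npas2, the period genes Per1, Per2 and Per3, the cryptochromes Cry1 and Cry2, and the REV-ERB receptor genes Nr1d1 and Nr1d2. All 10 were found by Ensembl identifier among the 23008 mouse genes of the table, and all 10 passed the filter of a mean of at least 10 normalised reads. RNA came from gastrocnemius, the large calf muscle, of C57BL/6J mice with no other genetic change. Every mouse had received, by tail vein, AAV9 (an adeno-associated virus that reaches striated muscle) carrying the GNDM epigenome editing construct, with the Lama1-directed guide m31 in 4 libraries and a non-targeting control guide in 4. No untreated muscle was analysed here. Tissue was taken 11 weeks after injection, and the age at injection is stated as 7 weeks in one label and as 7 to 12 weeks in another. The time of day of tissue collection is not given in the sources used here, nor is it stated that each library came from its own animal. P-values therefore describe how these libraries vary, which can include technical variation.

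The clock is a feedback loop of transcription present in nearly every cell. ARNTL pairs with CLOCK or NPAS2 and switches on genes through E-box sequences, among them the Per, Cry and Nr1d genes. The PER and CRY proteins then block ARNTL and CLOCK, while the REV-ERB receptors repress Arntl, Clock and Npas2 through ROR elements. As a result the transcripts rise and fall over the day, and in mouse tissues Arntl and Npas2 run roughly opposite to the Per genes, with Nr1d1 peaking before Per2. Skeletal muscle has its own clock, which is set in part by feeding and activity.

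The sequences below are the matches to clock elements in the members' promoter windows. They do not tell all members apart: Cry2 and Nr1d1 held the same element, and some windows held none. Windows of 250 bases before to 50 bases after a transcript start (RefSeq, GRCm38.p6) were given for 9 of the 10 members, in 13 windows; Per2 had none. Both strands were searched for the E-box CACGTG, the E'-box CACGTT, the D-boxes TTATGTAA and TTACGTAA, and the ROR element cores TAGGTCA and TGGGTCA. Of all 32851 windows, 7.15% held the E-box, 4.68% the E'-box, 1.06% a D-box and 6.45% a ROR element core. Of the 13 member windows, 2 held the E-box, 3 the E'-box, 1 a D-box and 1 a ROR element core. These counts are small and were not tested against those shares. Each line reads 5′ to 3′ on the strand of the gene, with the matched letters in capitals.
Arntl, ROR element core, chr7:113207530-113207558, plus strand: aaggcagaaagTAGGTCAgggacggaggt
Per1, E-box, chr11:69098767-69098804, plus strand: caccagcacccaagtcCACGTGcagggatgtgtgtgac
Per3, a pair of D-boxes, chr4:151044800-151044886, minus strand: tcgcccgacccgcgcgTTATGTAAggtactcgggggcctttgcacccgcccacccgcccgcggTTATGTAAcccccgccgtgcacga
Cry1, E'-box and E-box, chr10:85185093-85185149, minus strand: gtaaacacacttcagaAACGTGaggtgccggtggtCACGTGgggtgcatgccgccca
Cry2, E'-box, chr2:92434214-92434251, minus strand: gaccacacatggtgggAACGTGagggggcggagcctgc
Nr1d1, E'-box, chr11:98775384-98775421, minus strand: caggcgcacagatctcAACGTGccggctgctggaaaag

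In the Arntl window the ROR element core began 31 bases after the start that was used, and in the Nr1d1 window the E'-box began 28 bases before it. Per3 held its D-boxes 158 and 205 bases before the start, and no other member's window held a D-box. The Clock, Npas2 and Nr1d2 windows held none of these letters. A match is a run of letters and was not tested as a binding site.

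Facts of the whole series that bear on these genes are few. Libraries held 25157486 to 39210248 reads in mouse genes, and mitochondrial genes took 11.9 to 15.03% of them. The targeted gene Lama1 stood at 216 ± 93.6 normalised reads in the m31 group and 1.61 ± 2.02 in the control group (mean and SD of 4), and it was the 1 gene of 15960 past limma's threshold of an adjusted p of 0.05. All 8 markers of fast fibres were abundant in every library, with a summed level of 4652209 to 5320399 in the m31 group and 4288755 to 5918420 in the control group. Of the libraries, m31 replicate 4 and control replicate 3 stood apart by macrophage markers: the sum of 8 genes was 7973 and 5599 in these, against 2360 to 3947 in the other 6. Connective tissue markers (6 genes) summed to 176396 in m31 replicate 4 and to between 31036 and 57726 elsewhere.

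The clock genes did not separate the guides, while several of them varied several-fold among libraries that had received the same guide. Arntl, Clock and Npas2 were high in control replicates 3 and 4 and in m31 replicate 1, and low in control replicates 1 and 2. Per1, Per2 and Per3 were low in the first set of libraries; Per2 and Per3 were high in control replicates 1 and 2. Nr1d1 was ordered like Arntl, whereas Nr1d2, Cry1 and Cry2 varied little.

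Arntl lies at chr7:113207465-113314126, plus strand (GRCm38, as for all positions of members). Arntl, whose product pairs with CLOCK or NPAS2, measured 413, 309, 275 and 166 normalised reads across m31 replicates 1 to 4. In control replicates 1 to 4 it stood at 108, 101, 434 and 462. Thus both the lowest and the highest values lay in the control group, 4.57-fold apart, and the m31 libraries fell between them. The means were 291 ± 102 in the m31 group and 276 ± 199 in the control group (SD, n = 4 each), and the log2 difference was 0.35 ± 0.50 (SE; limma, adjusted p = 0.913 over all genes). Two-sided exact permutation over 70 arrangements, whose smallest possible p is 0.0286, returned p = 0.657.

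Clock, which encodes the main partner of ARNTL, followed a similar order with a shallower range. Clock lies at chr5:76209868-76304792, minus strand, and the measured pseudogene Ube2n-ps1 overlaps it on the same strand, so shared reads are uncertain. Its values were 914, 657, 682 and 639 normalised reads in the m31 group and 499.7, 439.8, 977 and 954 in the control group. Control replicates 1 and 2 were again the lowest and control replicates 3 and 4 the highest, 2.22-fold apart at the extremes. The log2 difference was 0.09 ± 0.25 (SE; limma, adjusted p = 0.966).

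Npas2, the paralogue of Clock, was the least abundant member. Npas2 lies at chr1:39193731-39363236, plus strand. It stood at 37.0, 21.6, 18.2 and 22.4 normalised reads in the m31 group and at 13.4, 7.63, 52.8 and 37.3 in the control group. The measured gene Gm3617 overlaps Npas2 on the same strand, so reads in the shared stretch are uncertain. The values rest on 8 reads in control replicate 2 and 47 in control replicate 3, so counting error is larger here than for the other members. The range was 6.92-fold, with control replicates 2 and 3 at its ends, and the log2 difference was 0.15 ± 0.52 (SE; limma, adjusted p = 0.971).

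**Figure D1:**
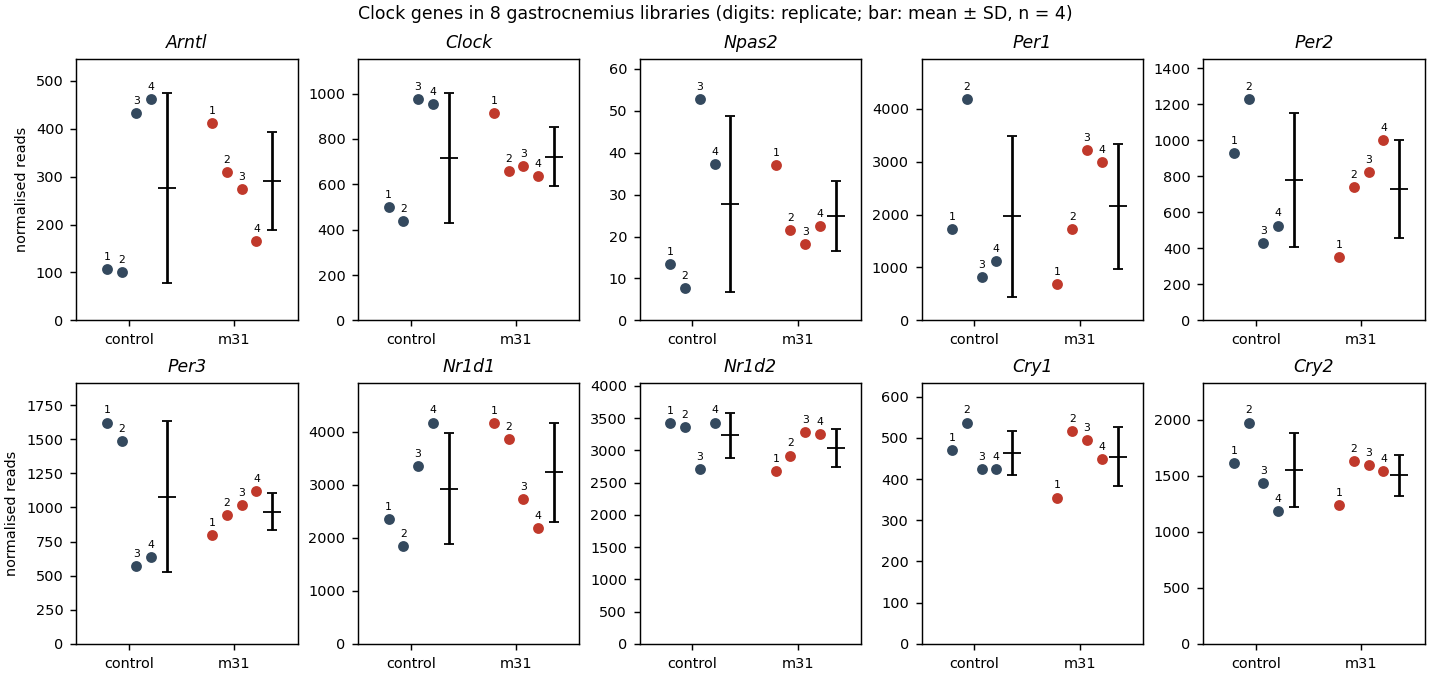
Each panel shows 1 clock gene, with normalised reads on a linear axis from 0 and each point 1 library, marked with its replicate number; bars are mean ± SD (n = 4). The guides overlap in every panel, and in Arntl control replicates 1 and 2 (108 and 101) lie below all m31 libraries and control replicates 3 and 4 (434 and 462) above them.

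The period genes, whose products hold the activators back, ran the other way. Per1 lies at chr11:69095217-69109960, plus strand. Per1 stood at 679.9, 1734, 3219.5 and 2999 normalised reads in the m31 group and at 1733, 4189, 820.4 and 1123 in the control group. The highest library, control replicate 2, was 6.16-fold above the lowest, m31 replicate 1, and both groups spanned most of that range. Its log2 difference was 0.19 ± 0.55 (SE; limma, adjusted p = 0.965).

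Per2 lies at chr1:91415982-91459324, minus strand. Per2 stood at 353, 738, 823 and 1002 normalised reads in the m31 group and at 928, 1229, 427 and 526 in the control group. The lowest libraries were m31 replicate 1 and control replicates 3 and 4, the 3 with the most Arntl. Its log2 difference was -0.06 ± 0.37 (SE; limma, adjusted p = 0.980).

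Per3, the period gene whose window held the D-boxes, stood at 795, 942, 1016 and 1117 normalised reads in the m31 group. In the control libraries it stood at 1622, 1488, 571 and 634, so that these 4 libraries formed a high and a low pair with all m31 libraries between. The log2 difference was -0.01 ± 0.31 (SE; limma, adjusted p = 0.996). Per3 lies at chr4:151003652-151044665, minus strand. GENCODE has a gene model of Camta1 that overlaps Per3 on the same strand, so reads in the shared stretch cannot be assigned with certainty.

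The REV-ERB genes, which encode repressors of Arntl, spanned unlike ranges. Nr1d1 lies at chr11:98767932-98775333, minus strand. Nr1d1 stood at 4155, 3856, 2735 and 2179 normalised reads in the m31 group and at 2357, 1841, 3346 and 4172 in the control group. Its highest libraries were control replicate 4 and m31 replicate 1, which were also among the 3 highest for Arntl, and its lowest was control replicate 2, as for Arntl. The log2 difference was 0.16 ± 0.26 (SE; limma, adjusted p = 0.929), with p = 0.657 by two-sided exact permutation. Nr1d1 overlaps Thra on the opposite strand, and without a known strand setting reads of the overlap cannot be told apart.

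Nr1d2, its paralogue, stood at 2681, 2920.1, 3289.6 and 3249 normalised reads in the m31 group and at 3429.9, 3368, 2709 and 3431 in the control group. Nr1d2 lies at chr14:18204054-18239127, minus strand. Its highest library was 1.28-fold above its lowest, the narrowest range of the 10 members. The log2 difference was -0.09 ± 0.10 (SE; limma, adjusted p = 0.892).

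The cryptochromes, partners of the PER proteins in repression, also varied little. Cry1 lies at chr10:85131700-85185064, minus strand. Cry1 ranged from 355 to 518 normalised reads in the m31 group and from 424 to 537 in the control group. Its lowest library was m31 replicate 1 and its highest control replicate 2. Cry2 stood at 1238, 1633, 1594 and 1543 in m31 replicates and at 1609, 1974, 1432 and 1186 in control replicates, with control replicate 2 again highest. Their log2 differences were -0.04 ± 0.13 and -0.03 ± 0.15 (SE; limma, adjusted p = 0.971 and 0.978). Cry2 lies at chr2:92403646-92434043, minus strand. Cry2 overlaps the measured gene D930015M05Rik on the opposite strand.

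None of the 10 members passed the test between guides by limma (0 of 10), where 0.00627% of all 15960 genes did. By edgeR 0 members passed, beside 1 gene of 16193. By DESeq2 0 members passed, beside 31 genes of 23007, of which 4047 had no adjusted p. At an unadjusted p under 0.05 by limma, 0 of 10 members stood beside 6.79% of all genes. Estimates were positive for 5 members and negative for 5, with a median log2 difference of 0.04 against 0.01 over all genes tested. The groups overlapped for all 10, and over all genes they did not overlap for 3.85%. These data bound the difference more tightly for some members than for others. The 95% interval of the log2 difference ran from -0.32 to 0.14 for Nr1d2, -0.33 to 0.25 for Cry1 and -0.36 to 0.30 for Cry2. It ran from -0.76 to 1.46 for Arntl and from -1.01 to 1.39 for Per1, so for these genes differences of more than a log2 unit lie inside the interval.

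**Figure D2:**
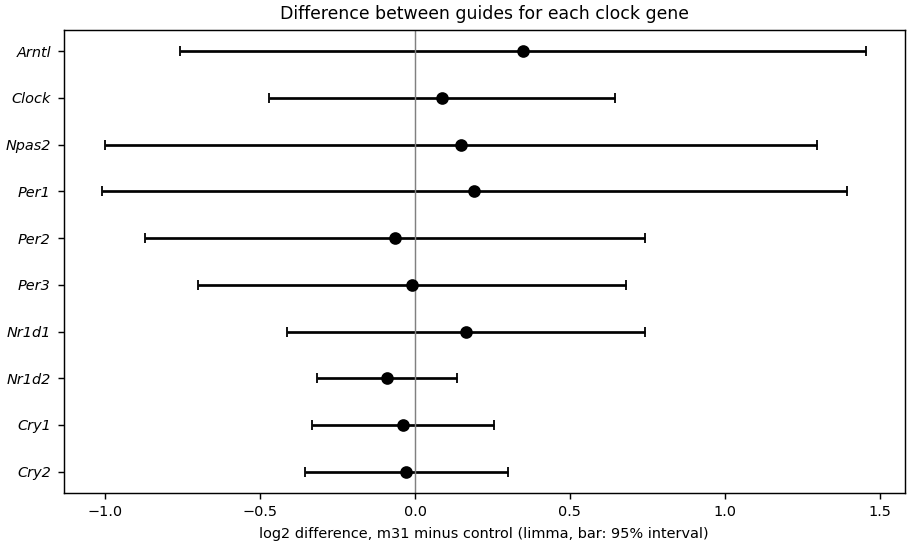
Points are log2 differences, m31 minus control, from limma for the 10 members, and bars are 95% intervals. Every interval spans 0; those of Arntl, Npas2 and Per1 are the widest, and that of Nr1d2 (-0.32 to 0.14) is the narrowest.

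To set the arms of the loop side by side in each library, the mean log2 value of Arntl, Clock and Npas2 was compared with that of Per1, Per2, Per3, Nr1d1 and Nr1d2, and their difference (the arm contrast) was centred on the 8 libraries. It was 1.07, -0.01, -0.29 and -0.46 in m31 replicates 1 to 4 and -0.99, -1.56, 1.34 and 0.89 in control replicates 1 to 4. The libraries thus spread over 2.90 log2 units, and the control libraries held both ends. The group means were 0.08 ± 0.69 in the m31 group and -0.08 ± 1.41 in the control group (SD, n = 4 each), a difference of 0.16, smaller than the SD of either group. No p-value is given for this score.

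Within the arm formed by the Per and Nr1d genes, Nr1d1 stood apart. The mean of Per1, Per2 and Per3 was 0.91 in control replicate 2 and -0.84 in control replicate 3, where the activator mean was -1.13 and 0.83 (each on the log2 scale, centred on the 8 libraries). The mean of Nr1d1 and Nr1d2 moved only from -0.29 to 0.32, lowest in control replicate 2 and highest in control replicate 4. This mean joins genes that ran in opposite directions: over the 8 libraries Nr1d1 and Nr1d2 had r = -0.56, while Nr1d2 had r of 0.68, 0.74 and 0.58 with Per1, Per2 and Per3 (descriptions, with no test). In m31 replicate 2 all 3 means lay close to 0, at 0.06, 0.02 and 0.14.

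**Figure D3:**
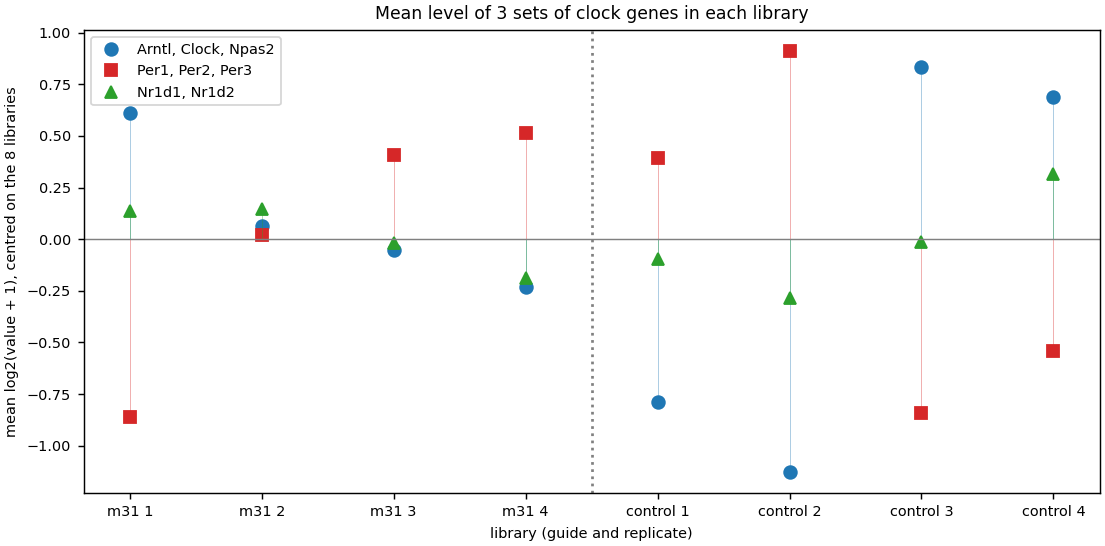
For each library on the horizontal axis, points give the mean log2(value + 1) of the activators, the Per genes and the Nr1d genes, centred on the 8 libraries. In m31 replicate 1 and control replicates 3 and 4 the activators lie above 0 and the Per genes below it; in control replicates 1 and 2 the order is the opposite (activators -0.79 and -1.13).

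Across the 8 libraries, Arntl was correlated with each of the other 9 members. These 9 relations were tested by exact two-sided permutation of pairings with Benjamini-Hochberg adjustment over the 9. The members were chosen with earlier results of these data known, so these p-values describe the libraries and are no independent test of the loop. Clock rose with Arntl (Pearson's r = 0.96, Spearman's rho = 0.95, exact permutation p = 0.000149 and 0.00114, adjusted p = 0.00123 for r). Npas2 did too (r = 0.90, rho = 0.90, exact permutation p = 0.00166 and 0.00456, adjusted p = 0.00499). Both are the activator genes that carry, with Arntl, the positive arm of the loop.

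Per3 fell as Arntl rose (r = -0.95, rho = -0.95, exact permutation p = 0.000273 and 0.00114, adjusted p = 0.00123). Per2 did likewise (r = -0.87, rho = -0.88, exact permutation p = 0.00756 and 0.00724, adjusted p = 0.0136), and so did Cry2 (r = -0.79, rho = -0.81, exact permutation p = 0.0166 and 0.0218, adjusted p = 0.0250). Per1 missed the threshold after adjustment (r = -0.74, rho = -0.74, exact permutation p = 0.0450 and 0.0458, adjusted p = 0.0579). These are repressor genes of the loop. Of the windows shown above, that of Per1 held an E-box, that of Per3 the D-boxes and that of Cry2 an E'-box. An E'-box was also in the window of Nr1d1, which rose with Arntl. The Cry1 window held an E'-box and an E-box, and Cry1 did not pass.

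Nr1d1 rose with Arntl (r = 0.91, rho = 0.90, exact permutation p = 0.00270 and 0.00456, adjusted p = 0.00608), which sets it apart in sign from the Per genes with which it was grouped. Neither Nr1d2 (r = -0.60, rho = -0.26, exact permutation p = 0.118 and 0.536, adjusted p = 0.118) nor Cry1 (r = -0.60, rho = -0.71, exact permutation p = 0.115 and 0.0576, adjusted p = 0.118) passed. With the group means removed, the coefficients of Clock, Npas2, Per3, Per2 and Nr1d1 were 0.96, 0.90, -0.97, -0.88 and 0.91. Per1 then passed as well (r = -0.78, permutation, adjusted p = 0.0339), which made 7 relations of 9. That permutation moved deviations between the guides, so its p-values are approximate and not exact. The share of all genes that would pass with Arntl was not computed, so the counts of relations have no background beside them.

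Control replicates 1 and 2 lay farthest from the median of Arntl. Without them, r was 0.87 for Clock, 0.73 for Npas2, -0.88 for Per3, -0.87 for Per2, -0.84 for Per1 and 0.88 for Nr1d1 over 6 libraries. None of the 9 relations then passed (exact permutation, smallest adjusted p = 0.0625), so the calls did not hold on the remaining 6 libraries, while these signs did. The loss of these particular libraries was not separated from having fewer libraries, and Per2 and Cry2 also missed the threshold in the 6 libraries without m31 replicate 4 and control replicate 3 (exact permutation, adjusted p = 0.07 and 0.0813). The call of Cry2 was lost without control replicate 2 alone (r = -0.67, exact permutation, adjusted p = 0.131). Per1 passed without m31 replicate 3 (exact permutation, adjusted p = 0.0360) or control replicate 1 (exact permutation, adjusted p = 0.0119), and Nr1d2 without control replicate 4 (r = -0.89, exact permutation, adjusted p = 0.0190).

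**Figure D4:**
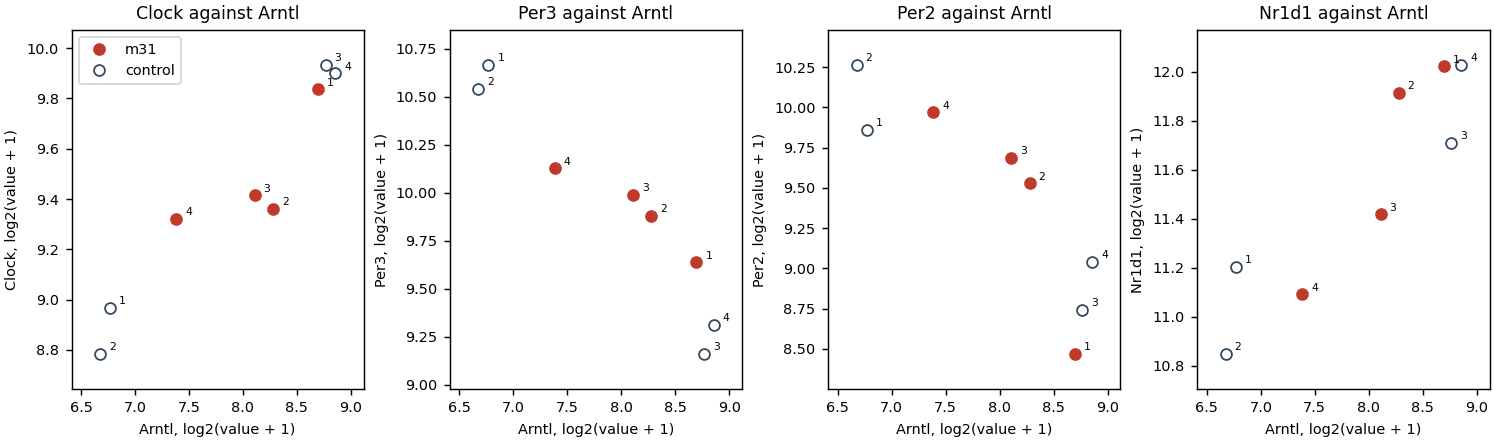
Each panel sets 1 member against Arntl over the 8 libraries, both as log2(value + 1); filled points are m31, open points control, and digits give the replicate. Clock (r = 0.96) and Nr1d1 (r = 0.91) rise with Arntl, and Per3 (r = -0.95) and Per2 (r = -0.87) fall.

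Depth and tissue markers are given here beside this order; their part in it was not tested. The 3 libraries with the highest arm contrast, control replicate 3, m31 replicate 1 and control replicate 4, were also the 3 shallowest, at 26188069, 34142447 and 25157486 reads in genes. The deepest library, control replicate 1 with 39210248 reads, had the second lowest contrast (-0.99). The next deepest, m31 replicate 4 with 37792459 reads, stood at -0.46, and the library with the lowest contrast, control replicate 2, had 34873966 reads. Close in depth to m31 replicate 1 was m31 replicate 2, with 34512896 reads and a contrast of -0.01. The macrophage-rich libraries, control replicate 3 and m31 replicate 4, had arm contrasts of 1.34 and -0.46. In bulk muscle, a change in the mix of cells and a change in RNA per cell cannot be told apart.

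Beside other genes, the activators and the Per genes were among the more variable between libraries of the same guide. The pooled within-group SD of log2(value + 1) was 1.03 for Per1, 0.94 for Arntl, 0.92 for Npas2, 0.68 for Per2 and 0.58 for Per3. These lie at the 99.2, 98.9, 98.8, 95.8 and 92.2 percentiles of the 15960 genes tested, whose median SD was 0.21. Nr1d1 (SD 0.48) and Clock (0.46) lay at the 87.0 and 85.4 percentiles. Cry2 (0.25), Cry1 (0.21) and Nr1d2 (0.15) lay at the 59.1, 47.4 and 30.5 percentiles, so these members lay near or under the median. The SD was larger among control than among m31 libraries for Arntl (1.21 against 0.55) and Npas2 (1.22 against 0.42). The same held for Per3 (0.79 against 0.21), Clock (0.61 against 0.24) and Cry2 (0.31 against 0.18). It was similar for Per1 (1.02 against 1.03) and Per2 (0.71 against 0.66), and smaller for Cry1 (0.16 against 0.24). These differences were not tested.

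**Figure D5:**
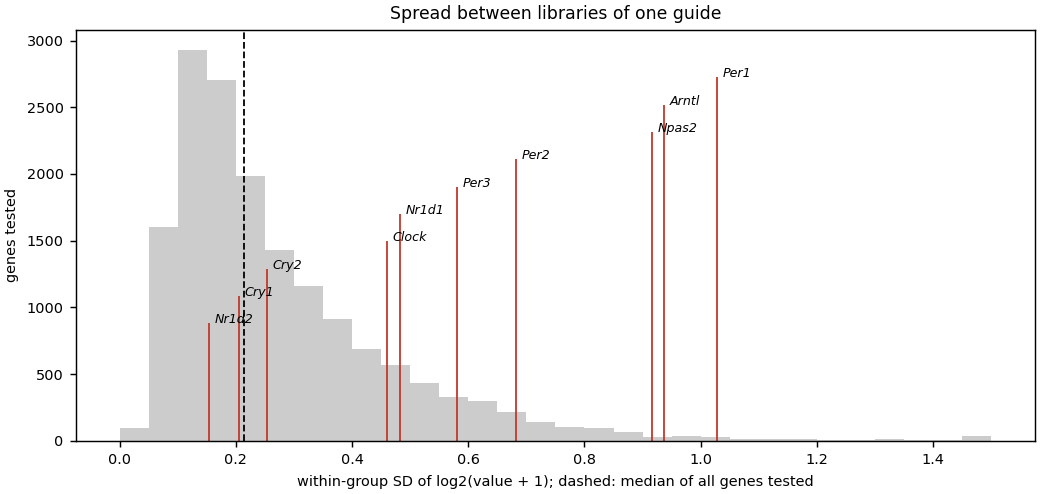
Grey bars count the genes tested by their within-group SD of log2(value + 1), with all SDs above 1.45 in the last bar, and red lines mark the 10 members. Per1 (1.03), Arntl (0.94) and Npas2 (0.92) lie in the far tail, and Nr1d2 (0.15) and Cry1 (0.21) lie left of the median of all genes.

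Levels can be ranked between members only per length. In normalised reads per kilobase of annotated exon, averaged over the 8 libraries, Nr1d1 was highest at 1001, followed by Nr1d2 at 579.5, Per1 at 366 and Cry2 at 241. Cry1, Per2 and Per3 followed at 137, 129 and 106, then Clock at 52.5, Arntl at 37.7 and Npas2 at 5.49. Neighbours in this order overlapped in range except Cry2 over Cry1 and Arntl over Npas2, where the higher gene was higher in 8 of 8 libraries. Clock exceeded Arntl in 8 of 8 libraries although their ranges overlapped, while Cry1 exceeded Per2 in 5 of 8. The annotated exon length counts every isoform, so these levels are approximate.

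The further genes of the clock pathway were taken as lists. Among the 7 output regulators, none passed between guides; 4 estimates were positive and 3 negative, with a median log2 difference of 0.01. Dbp, Tef and Hlf encode the PAR bZIP activators that bind D-boxes, and Nfil3 encodes a repressor that acts at D-boxes. Tef was highest in control replicates 2 and 1 at 11064 and 10912 normalised reads and lowest in control replicate 3 at 7571; these are also the highest pair and the lowest library for Per3. Dbp ranged from 2844 to 3513 in the m31 group and from 1723 in control replicate 3 to 3817 in control replicate 1. Hlf stood at 682 ± 169 in the m31 group and 680.5 ± 188 in the control group (SD, n = 4 each). It was lowest in m31 replicate 1 at 470 and highest in m31 replicate 4 at 877, unlike Per3.

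Nfil3 had the smallest unadjusted p of the output list, with 474 ± 77.5 normalised reads in the m31 group and 709.8 ± 200.4 in the control group (SD, n = 4 each; log2 difference -0.54 ± 0.21 SE, limma adjusted p = 0.716). Control replicate 1, at 420.2, lay within the m31 range of 384 to 563. Bhlhe41 (log2 difference 0.45) and Bhlhe40 (0.13), E-box repressors, and Ciart (-0.13), a repressor of ARNTL and CLOCK, did not pass. Ciart was highest in control replicate 1 at 317 and lowest in control replicate 4 at 153, low where Arntl was high.

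Rora, which encodes an activator that shares the ROR element with the REV-ERBs, had a log2 difference of -0.04 and did not pass. Of 9 measured kinase and ubiquitin ligase genes that set the life of PER and CRY proteins, 0 passed, with 4 positive and 5 negative estimates, and 3 had a positive and 6 a negative r with Arntl. Btrc, which encodes a ubiquitin ligase subunit, was the 1 gene of that list whose groups did not overlap, at 707 ± 10.1 normalised reads in the m31 group and 753 ± 26.9 in the control group (SD, n = 4 each; log2 difference -0.09, limma adjusted p = 0.848). Over all genes tested, the groups did not overlap for 3.85%. Usp2, a deubiquitinase gene, ranged from 4167 in control replicate 3 to 8849 in control replicate 2, the libraries at the ends of the arm contrast.

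Among 12 co-regulator genes, 0 passed, with 5 positive and 7 negative estimates. Crebbp and Ep300, coactivator genes, had log2 differences of -0.26 and -0.17 and did not pass.

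Per1 and Per2 also respond to stress hormones and heat, so lists of such genes were placed beside them. Of 9 glucocorticoid-responsive genes 0 passed, with 3 positive and 6 negative estimates; Fkbp5 and Mt1 had log2 differences of 0.39 and 0.40 (limma adjusted p = 0.652 and 0.733). Across the 8 libraries 3 of the 9 had a positive r with Arntl and 6 a negative one, from -0.84 to 0.36 with a median of -0.52. Ddit4 and Sgk1 are described for their order over libraries and were chosen with their values in view. Ddit4, a gene induced by stress and glucocorticoids, was highest in the library with the most Per1, control replicate 2, at 2815 normalised reads, and lay between 310.2 and 1206 elsewhere. Sgk1, a glucocorticoid-induced kinase gene, was lowest in m31 replicate 1 (2894) and highest in control replicate 2 (7495), the same libraries that bounded Per1 and Per2. Their part in the Per1 and Per2 values was not tested.

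Of 8 temperature-responsive genes 0 passed, with 4 positive and 4 negative estimates. Rbm3, a cold-induced RNA-binding protein gene, stood at 1379.9 ± 182 normalised reads in the m31 group and 1851 ± 269 in the control group (SD, n = 4 each; log2 difference -0.42 ± 0.13 SE, limma adjusted p = 0.647). With Arntl, 5 of the 8 had a positive r and 3 a negative one, from -0.70 to 0.93 with a median of 0.86. Hsp90aa1, an inducible chaperone gene, stood at 942 and 1067 in control replicates 1 and 2 and at 2693 and 2401 in control replicates 3 and 4, with 1645 to 2305 in the m31 libraries, an order close to that of Arntl. Hspa8 was likewise lowest in control replicate 1 (26763) and highest in control replicate 4 (41127).

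Genes most like the arm contrast over the 8 libraries were sought among the 12312 other genes with a mean of at least 50, by Pearson's r as a description. The median absolute r was 0.36, and 1.13% of these genes had an absolute r above 0.9. The highest were Fip1l1, Pvr, Taf2, Rnf144a, Ralgapa1 and Kpna4, with r of 0.97 to 0.98. Fip1l1, an mRNA 3′ end processing factor gene, stood at 844 and 773 normalised reads in control replicates 3 and 4 and at 630.2 and 613 in control replicates 1 and 2. The lowest were Dusp14, Slc46a3, Ccm2l, Slc45a4, Aqp1 and Zfp523, with r of -0.99 to -0.97. Dusp14, a phosphatase gene, stood at 284 and 287 in control replicates 1 and 2 and at 162 and 181 in control replicates 3 and 4, with 166 to 236 in the m31 libraries. Aqp1, the water channel gene of small vessels, ranged from 8349 in control replicate 3 to 15184 in control replicate 2. None of these 12 genes passed between guides (limma, smallest adjusted p = 0.940).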

How the data were processed

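The authors deposited 1 table of size-factor-normalised read signal (reads of each gene scaled by a factor for its library). STAR and DESeq2, without versions, and the human build GRCh38.p12 are named per the submitters' processing notes, while the gene identifiers are mouse; the sources used here do not give the counting program, strand setting or filters. Of 11 value columns, 8 match library names in the labels and 3 others were not used. The 5 construct entries were left out of all tests. Symbols were found for 22979 of 23008 identifiers; positions and exon lengths are from GENCODE M21 (GRCm38). Whole reads were recovered for 100% of values (within 0.01 of a read).

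The transform log2(value + 1) was taken and limma 3.58.1 (R 4.3.3; trend on mean level, intercept and group, 8 libraries) was fitted for the 15960 genes with a mean of at least 10, with Benjamini-Hochberg adjustment over all of them and a threshold of 0.05. edgeR 4.0.16 and DESeq2 1.42.0 were run on the recovered reads as alternatives; edgeR called 1 gene of 16193. Correlations with Arntl used exact permutation tests, which are approximate where group means were removed. Of the members' differences, only those of Arntl and Nr1d1 were also tested by exact permutation. The methods were tested on simulated data. Fold changes of low genes on this scale are understated. Deviations of same-numbered libraries correlated at -0.18 to 0.05, and those of unlike-numbered libraries at -0.18 to 0.22. No sign of pairing by replicate number was thus seen, but this check cannot show whether the design paired them. No 2 libraries of a group agreed within sampling noise (chi-square per degree of freedom 13.0 to 52.2).

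The members and gene lists were chosen with earlier results of these data known. All members are reported; of each list, its counts, up to 4 genes with the smallest unadjusted p and all outputs could be named, plus 6 genes each with the highest and lowest r with the arm contrast, of which some are given by name only. Btrc falls under that rule; Usp2, Ddit4, Sgk1, Hsp90aa1 and Hspa8 were chosen once their values were known. Some genes under this rule are not reported here.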

Additional observations from a re-analysis of the deposited data

Results flagged for a closer look

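Within the 4 libraries of a guide, 22 sets of values (10 members and the arm contrast, for each guide) were screened for a library far from the other 3, which chance flags in about 1 of 20 sets. Clock reached 914 normalised reads in m31 replicate 1, where the 3 remaining m31 libraries held 639 to 682. Nr1d2 was at 2709 in control replicate 3, where the 3 remaining control libraries held 3368 to 3431. Both fell in libraries with high Arntl.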

How the results depend on the processing

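No member passed the test between guides under any of 19 alternatives (smallest adjusted p = 0.309). Of 189 member differences recomputed, 164 kept their sign and 25 reversed. Leaving out 1 library at a time, the log2 difference ranged from -0.014 to 0.71 for Arntl, -0.12 to 0.27 for Clock, -0.31 to 0.57 for Npas2, -0.13 to 0.67 for Per1, -0.31 to 0.25 for Per2, -0.26 to 0.24 for Per3, -0.036 to 0.36 for Nr1d1, -0.11 to 0.074 for Cry1 and -0.15 to 0.10 for Cry2. Npas2 was also -0.13 by edgeR and -0.15 by DESeq2, where Arntl was 0.087 and 0.076. With library weights Per1 was -0.13, Arntl 1.0 (adjusted p = 0.309), Npas2 0.61, Nr1d1 0.43, Clock 0.35, Per2 -0.37 and Per3 -0.43. Without both m31 replicate 4 and control replicate 3, Per1 was -0.37, Per2 -0.49, Per3 -0.34, Arntl 0.93, Clock 0.32, Npas2 0.60, Nr1d1 0.42 and Nr1d2 -0.21. Nr1d2 kept its sign throughout, at -0.17 to -0.032 with 1 library left out.

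Blocking on replicate number left the count of genes called at 1 and of members called at 0, and no call changed. Leaving out 1 library gave 1 to 2 genes over the genome (Gm10524 joined Lama1 without m31 replicate 1, Xlr3b without control replicate 4). Without both m31 replicate 4 and control replicate 3 it was 3 (Lama1, Pde10a and Cilp), and DESeq2 called 31; the cause was not tested. The difference in arm contrast ranged from -0.34 to 0.81 over its alternatives, so its sign was not stable. It was negative without m31 replicate 1 (-0.18), control replicate 1 (-0.15) or control replicate 2 (-0.34), and positive in the other alternatives. Of the correlations with Arntl, 6 passed in full, 5 to 7 with 1 library left out and 4 without both m31 replicate 4 and control replicate 3 (Per2 and Cry2 lost); without the 2 libraries farthest from the Arntl median it was 0, with 6 libraries tested. No share of all genes passing with Arntl was computed beside these counts. Depth limits Npas2 (8 to 47 reads) more than the other members.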

Other observations

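Genes of muscle that are known as clock-controlled or as responsive to fasting did not pass between guides either (0 of 9 in each list; 5 positive and 4 negative estimates in the first, 4 and 5 in the second). Of the first list 2 had a positive and 7 a negative r with Arntl over the 8 libraries, and of the second 7 and 2. Pdp1, a pyruvate dehydrogenase phosphatase gene, stood at 3337 and 2871 normalised reads in control replicates 1 and 2, at 1697 and 1768 in control replicates 3 and 4, and at 2166 to 2359.7 in the m31 libraries. Tcap, a sarcomere gene, was highest in control replicates 1 and 2 (88209.9 and 88664) and lowest in m31 replicate 1 (42999). Pdk4, a pyruvate dehydrogenase kinase gene induced by fasting, fell into high values in m31 replicates 1 and 3 and control replicate 3 (18293 to 18495) and lower ones in the other 5 (5200.1 to 11147), an order unlike that of Arntl in m31 replicate 3. Fbxo32, an atrophy ubiquitin ligase gene, had a log2 difference of -0.38 ± 0.14 (SE; limma, adjusted p = 0.705). Of 10 immediate early genes 0 passed, with 5 positive and 5 negative estimates. These genes were chosen once their values were known, except Tcap and Fbxo32.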
